A study of Mus musculus with 6 samples.

Results

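The 10 genes described here are Nfya, Swap70, Trim21, Btla, Bcap29, Pak3, Pigt, Ergic3, Agbl2 and Rassf4. They were chosen by name from the 14165 genes of a table of pooled mouse oocytes, for large falls in counts after knockdown of Plat, the gene of tissue plasminogen activator. The study asked what Plat does in ageing oocytes and measured polyadenylated RNA of oocytes in metaphase II (MII), where an ovulated oocyte pauses until it is fertilised. Libraries were made with Smart-seq2, which copies whole messages into cDNA and amplifies them by PCR. The 4 groups are 2 pools treated with control short interfering RNA (siCtrl), 2 pools treated with short interfering RNA against Plat (siPlat), 35 single oocytes labelled young and 59 labelled aged, both with no treatment given. Each pool held 10 oocytes labelled young. The labels give no strain, no age in months, no animals and no delivery method, so the 2 pools of a group may differ only technically, p-values measure only the spread between these pools, and each age of single oocytes is 1 sample. Beside their values in the pools, which chose them, the genes were followed through the 94 single oocytes, at both ages and, in the aged sample, on either side of a mitochondrial share of 5%. That share is the percent of an oocyte's gene counts from mitochondrially encoded genes.

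An MII oocyte does not transcribe its genome. Its messenger RNA was made during growth and is stored, translated or degraded on a schedule in which its poly(A) tail takes part, so a method primed on poly(A) reads both how much of a message is present and how much of it carries a tail. The 10 genes belong to several pathways, and all are protein coding. Nfya (GRCm38, chr17:48386885-48409906, minus strand) encodes the DNA-contacting subunit of NF-Y, a trimer with Nfyb and Nfyc that binds the CCAAT box of promoters. Swap70 (chr7:110221711-110283506, plus strand) encodes an actin-binding protein with exchange activity towards Rac. Pak3 (chrX:143518591-143797796, plus strand) encodes a p21-activated kinase, an effector of Rac and Cdc42. Rassf4 (chr6:116633008-116673952, minus strand) encodes a protein with a Ras-association domain of the family that meets the Hippo kinases. Ergic3 (chr2:156008045-156018279, plus strand) encodes a cargo receptor that cycles between the endoplasmic reticulum (ER) and the Golgi, and Bcap29 (chr12:31590967-31634658, minus strand) encodes an ER membrane chaperone related to Bcap31. Pigt (chr2:164497520-164508301, plus strand) encodes a subunit of the transamidase that attaches glycosylphosphatidylinositol (GPI) anchors to proteins. Agbl2 (chr2:90782727-90834437, plus strand) encodes a carboxypeptidase that trims the tails of tubulin. Trim21 (chr7:102557921-102565486, minus strand) encodes a ubiquitin ligase that binds antibodies in the cytosol, and Btla (chr16:45224315-45257670, plus strand) encodes an inhibitory receptor best known on lymphocytes. In the GENCODE annotation Swap70 shared 395 exon bases with the antisense gene Gm45515, and reads from that stretch cannot be assigned without the strand setting of the counting. The other 9 shared no exon bases with another gene.

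Because NF-Y reads the CCAAT box, the 250 bases before the RefSeq start of each gene (GRCm38.p6) were searched for CCAAT on both strands, that is for CCAAT and ATTGG. Of the 10 genes, 9 had an entry, all but Bcap29, and 4 of these 9 (44.4%) held a match, beside 34.5% of 27025 promoters of the same length and 37.5% of the 8973 that belong to genes tested in the pools. The promoter of Ergic3 (chr2:156007778-156008027, plus strand) held 2 matches, which begin 238 and 78 bases before the start. Single matches stood 25 bases before the start in Pigt (chr2:164497275-164497524, plus strand), 166 bases before it in Pak3 (chrX:143518341-143518590, plus strand) and 216 bases before it in Rassf4 (chr6:116673837-116674086, minus strand). The promoter of Nfya itself (chr17:48409821-48410070, minus strand) held none, as did those of Swap70, Trim21, Btla and Agbl2. The 4 promoters with a match and that of Nfya are shown on their gene's strand, with matches in capitals; a match is a run of letters and not a measured binding site.
Ergic3: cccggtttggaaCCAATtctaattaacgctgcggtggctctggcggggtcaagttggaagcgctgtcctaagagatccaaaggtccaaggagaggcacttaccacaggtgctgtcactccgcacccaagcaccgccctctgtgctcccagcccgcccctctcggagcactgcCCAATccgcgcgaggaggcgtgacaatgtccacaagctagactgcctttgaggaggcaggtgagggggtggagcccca
Pigt: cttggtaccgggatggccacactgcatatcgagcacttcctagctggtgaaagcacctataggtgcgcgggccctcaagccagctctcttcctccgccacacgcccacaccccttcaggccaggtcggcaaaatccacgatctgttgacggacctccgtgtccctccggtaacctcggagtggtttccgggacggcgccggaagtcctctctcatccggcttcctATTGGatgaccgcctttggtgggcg
Pak3: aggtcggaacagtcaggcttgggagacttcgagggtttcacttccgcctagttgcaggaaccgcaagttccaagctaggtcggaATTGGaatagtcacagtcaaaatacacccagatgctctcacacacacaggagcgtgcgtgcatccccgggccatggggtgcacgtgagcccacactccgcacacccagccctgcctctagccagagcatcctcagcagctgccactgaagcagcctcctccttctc
Rassf4: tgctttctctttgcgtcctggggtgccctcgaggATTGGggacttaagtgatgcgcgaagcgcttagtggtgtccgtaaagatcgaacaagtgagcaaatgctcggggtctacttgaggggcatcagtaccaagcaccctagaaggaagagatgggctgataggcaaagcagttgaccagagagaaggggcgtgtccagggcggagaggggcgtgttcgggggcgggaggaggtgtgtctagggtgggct
Nfya: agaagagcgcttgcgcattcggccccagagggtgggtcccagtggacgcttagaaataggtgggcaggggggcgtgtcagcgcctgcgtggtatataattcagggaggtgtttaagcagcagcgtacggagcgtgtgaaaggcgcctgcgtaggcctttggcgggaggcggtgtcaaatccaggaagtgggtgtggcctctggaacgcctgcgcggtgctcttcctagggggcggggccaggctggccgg

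In the table of pools Plat fell from 441 and 439 CPM (a gene's counts scaled to the total of its library) in siCtrl to 51.3 and 39.0 CPM in siPlat, a log2 change of -3.28 (SE 0.19, adjusted p = 6.21e-06, edgeR's quasi-likelihood test with Benjamini-Hochberg adjustment). The pools held 12142884 to 17475952 counts, the young oocytes 5480050 to 11894782 counts, and the aged oocytes 2018226 to 9502184 counts. The same test across 11136 genes called 394 (3.54%), 157 of them lower in siPlat. All 10 genes passed the filter on low counts and are among those 157, beside 1.41% of all tested genes called lower; since they were chosen from this contrast, their calls are given as a description and no p is printed for them. The labelled cell type was checked by its markers: 14 oocyte markers summed to between 27993 and 32809 CPM in the 4 pools, and 11 markers of cumulus and granulosa cells, 5 of them listed, to between 22.0 and 40.6 CPM. Of the 14 oocyte markers, 3 fell with siPlat: Zp1 (log2 change -1.31, SE 0.26), Gdf9 (-0.84, SE 0.14) and Mos (-1.64, SE 0.18), with adjusted p of 0.0258, 0.0102 and 0.00101 by edgeR. DESeq2 and limma-voom each had 5 of them lower, beside 242 and 152 of all 11136 tested genes. At an unadjusted p under 0.05 edgeR had 7 lower and 2 higher, with no share over all tested genes computed. A pool measures shares of RNA, so a lower level per oocyte and fewer oocytes carrying the message cannot be told apart.

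The transcription factor subunit Nfya stood at 235 and 227 CPM in the siCtrl pools and at 41.6 and 42.1 CPM in the siPlat pools. The means were 231 ± 5.35 and 41.9 ± 0.388 CPM (SD, n = 2 each), a 5.52-fold lower level with a log2 change of -2.46 (SE 0.17). The pools of a group nearly coincide for this gene, and the groups lie far apart, as its choice from this contrast made likely.

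The 2 Rac-linked genes fell alongside each other. Swap70 had 14.3 CPM in both siCtrl pools and 1.72 and 1.96 CPM in the siPlat pools, which is 7.77-fold lower (log2 change -2.95, SE 0.35). Pak3 had 23.4 and 21.8 CPM in siCtrl and 4.65 and 5.81 CPM in siPlat, 4.32-fold lower (log2 change -2.11, SE 0.28). For both, the spread within a group was a small part of the gap between groups.

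Among the genes of the secretory route, Bcap29 had 49.7 and 47.6 CPM in siCtrl and 7.66 and 9.18 CPM in siPlat, 5.78-fold lower (log2 change -2.53, SE 0.23). Pigt had 14.5 and 11.01 CPM in siCtrl and 3.27 and 2.83 CPM in siPlat, 4.19-fold lower (log2 change -2.07, SE 0.35). Ergic3 had 15.3 and 36.8 CPM in siCtrl and 6.89 and 5.73 CPM in siPlat, 4.13-fold lower in the means (log2 change -2.04, SE 0.40). Ergic3 is the least settled of these: its siCtrl pools differed 2.40-fold, and the lower of them stood 2.22-fold above the nearest siPlat pool. Its log2 change was -1.28 without siCtrl pool 2 and -2.54 without siCtrl pool 1.

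Agbl2, the tubulin carboxypeptidase, was lost from the siPlat libraries. It had 42.7 and 34.2 CPM in siCtrl, from 764 and 484 counts, and 0 counts in both siPlat pools, which is at least 316-fold lower with 3 counts over the group as the floor. Rassf4 came close to the same pattern, with 12.8 and 12.6 CPM in siCtrl, from 229 and 178 counts, and 2 and 0 counts in siPlat. The ratio of its counts, corrected for library size, was 155 with a 95% counting interval of 42.5 to 1281. Counting intervals here treat PCR reads as independent and so cover counting error only.

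The last pair are genes best known from the immune system. Trim21 had 13.4 and 14.2 CPM in siCtrl and 2.07 and 2.354 CPM in siPlat, 6.24-fold lower (log2 change -2.64, SE 0.34). Btla had 17.2 and 11.4 CPM in siCtrl and 1.46 and 3.77 CPM in siPlat, 5.47-fold lower (log2 change -2.44, SE 0.44). The siPlat pools of Btla differed 2.57-fold, and its log2 change was -3.27 without siPlat pool 2 and -1.93 without siPlat pool 1. For none of the 10 genes did the siCtrl and siPlat libraries overlap. Their choice for large falls between these same libraries made that likely, so it supports nothing.

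The rule that named the 10 genes carries no numeric threshold, and they are not the 10 largest falls. By log2 change they rank from 1 (Agbl2) to 36 (Ergic3) among the genes called lower, and 26 other called genes fell further than Ergic3. The called genes just past Ergic3 that were not chosen are Vamp3 (log2 change -2.06), Cldn34b2 (-2.29) and Tpm4 (-2.29). Those just short of it are Dclre1c (-2.02), 5730507C01Rik (-2.003) and Gm42151 (-1.999).

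**Figure D1:**
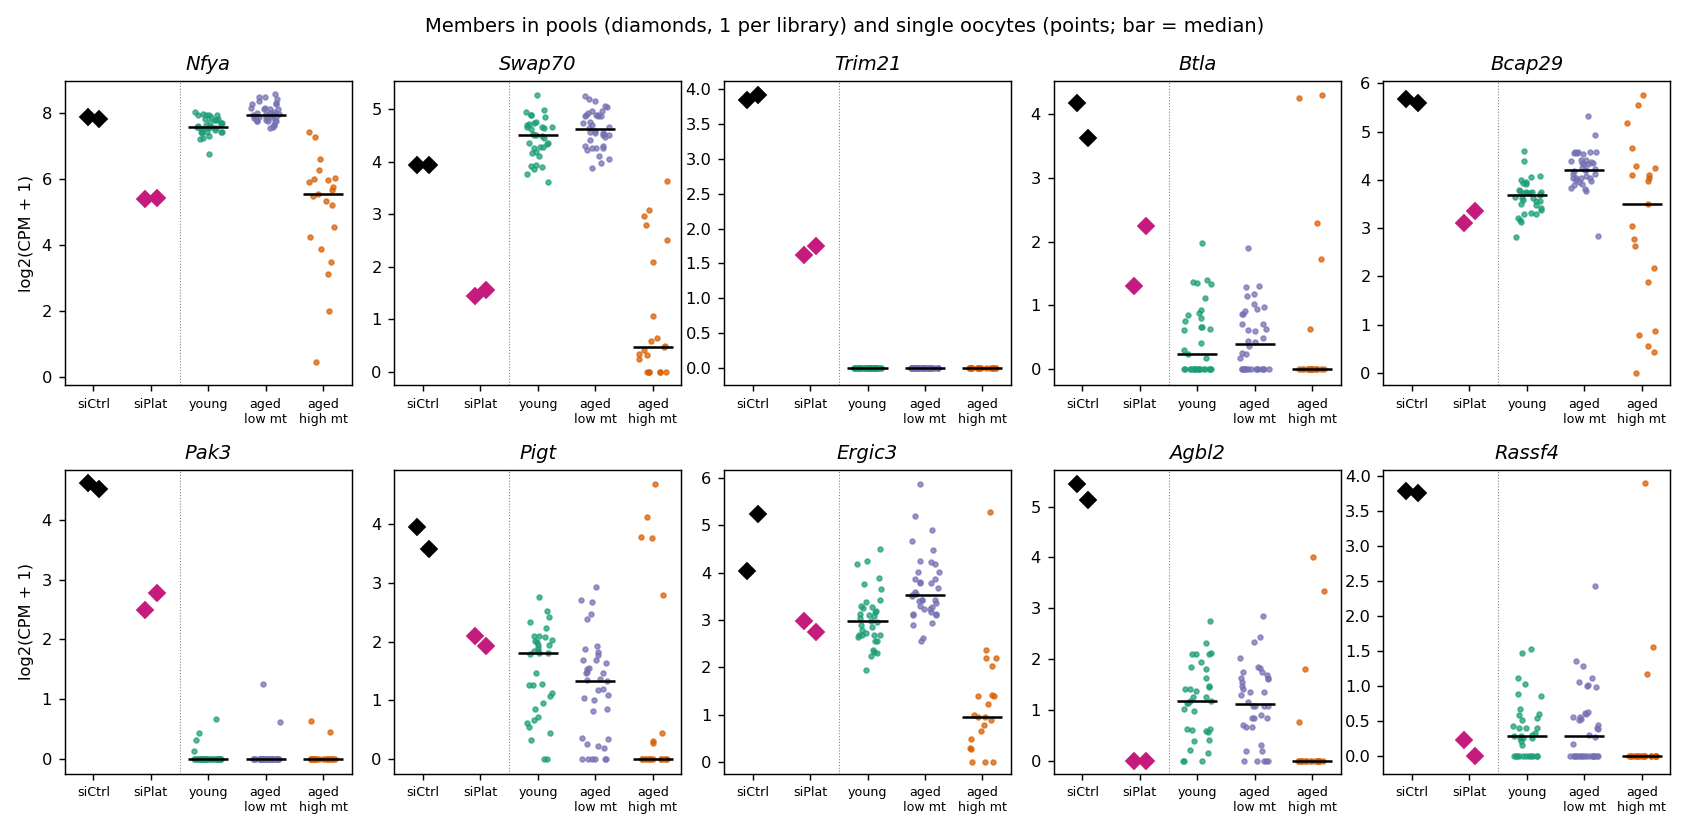
Level of each of the 10 genes as log2(CPM + 1), with siCtrl and siPlat pools as diamonds (1 per library, TMM-scaled CPM) and single oocytes as points, split into young, aged at or below 5% mitochondrial share (low mt) and aged above 5% (high mt), with a bar at the median over oocytes. The pools and the single oocytes come from separately made tables, and Trim21 is at 0 in all 94 oocytes. The siCtrl and siPlat diamonds do not overlap in any panel, as the choice of the genes from these pools made likely.

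No tested partner of the 10 genes passed edgeR's test as lower. Lists of their complexes and pathways, without the 10 genes themselves, held 126 genes, of which 118 were in the table and 110 were tested. By edgeR, 0 of the 110 were lower in siPlat and 3 were higher, beside 1.41% and 2.13% of all tested genes, and their median log2 change was -0.04, beside -0.03 over all tested genes. At an unadjusted p under 0.05 edgeR had 10 lower and 11 higher, and the share over all tested genes at that cut was not computed. With adjusted p, DESeq2 had 3 lower and 5 higher, beside 242 and 441 of all 11136 tested genes. By limma-voom 1 was lower and 4 were higher, beside 152 and 262 of the 11136. Nfyb, the histone-fold partner of Nfya in NF-Y, rose from 67.4 and 56.9 CPM to 116 and 102 CPM (log2 change 0.81, SE 0.18, adjusted p = 0.0371 by edgeR). The third NF-Y subunit, Nfyc, had 34.3 and 28.7 CPM in siCtrl and 32.0 and 46.2 CPM in siPlat (log2 change 0.31, adjusted p = 0.528 by edgeR). Rac1, the GTPase that activates p21-activated kinases, rose from 630 and 562 CPM to 898 and 1020.01 CPM (log2 change 0.69, SE 0.15, adjusted p = 0.0315 by edgeR). Ssb, the La protein of the Ro ribonucleoprotein particles, rose from 4905 and 4286 CPM to 7041 and 6927 CPM (log2 change 0.60, SE 0.13, adjusted p = 0.0325 by edgeR). The count of partners called by edgeR was 0 without siCtrl pool 1 and 15, with 9 of them lower, without siPlat pool 2.

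None of the close relatives named next passed the test. Among other p21-activated kinases, Pak1 had a log2 change of 0.55 (adjusted p = 0.135 by edgeR), Pak2 of 0.30 and Pak4 of 0.16. Bcap31, the paralog of Bcap29, had 225 and 182 CPM in siCtrl and 334 and 259 CPM in siPlat, with a log2 change of 0.54 (adjusted p = 0.135 by edgeR). Ergic1 and Ergic2, which work with Ergic3, had -0.49 and 0.19. Of the other transamidase subunits, Pigk had -0.13, Pigs -0.45 and Pigu -0.47, and Gpaa1 was too low to be tested. Of the other tubulin carboxypeptidases, Agtpbp1 had 0.07, Agbl3 0.49 and Agbl5 -0.83. Agbl1, a further relative of Agbl2, had 1.51 and 1.55 CPM in siCtrl and 0 and 0.157 CPM in siPlat (adjusted p = 0.122 by edgeR). By list, edgeR called in either direction 0 of 30 tested genes of ER to Golgi transport and 0 of 22 of GPI anchor synthesis. It also called 0 of 12 of tubulin tail modification and 0 of 13 of the RASSF and Hippo list. The same held for 0 of 8 CCAAT-box targets of NF-Y and 0 of 3 around BTLA. Over all 11136 tested genes edgeR called 3.54%, and a count of 0 in lists this small is near that share. At an unadjusted p under 0.05, edgeR had 5, 2, 3, 4, 1 and 0 genes of these lists in the same order, with no share over all tested genes computed. With adjusted p, DESeq2 called 1 gene in each of the first 5 lists and 0 around BTLA, beside 683 of all 11136 tested genes. By limma-voom 1 gene was called in the first list, 1 in the fourth and 0 in the others, beside 414 of the 11136.

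The level of the 10 genes in siCtrl was then set beside that of the young single oocytes, which share their age label, stage and library method. The 2 tables were made separately, so CPM was taken over the 13661 genes that both list and no test was made between them. Of these, 7504 were tested in the pools and had at least 5 CPM in siCtrl. That cut is on siCtrl alone, so it keeps genes high in siCtrl and low in oocytes and drops the reverse. All shares below carry that limit. Over the 7504 genes the siCtrl mean and the young sum had a Spearman rho of 0.73. The median fold was 1.03 over genes with a young count, where both tables are scaled to the same total. Genes are not independent replicates, and many single genes differed widely, as the shares below show. For 7 of the 10 genes both siCtrl pools lay above every one of the 35 young oocytes, beside 27.7% of those 7504 genes and 27.6% of 127 other genes called lower. Without Trim21, which has no count in any oocyte, it was 6 of 9, beside 27.4% of the genes with a young count. The 3 exceptions are Nfya, Swap70 and Ergic3. For none of the 10 did both siCtrl pools lie below every young oocyte, beside 23.7% of the 7504 genes. High siCtrl values helped to choose the 10 genes, so these counts are a description and support nothing. Plat itself, over the genes that both tables list, had 4550 to 10452 CPM in young oocytes beside 463 and 476 CPM in the siCtrl pools.

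Nfya had 247 CPM in both siCtrl pools and 115, 202 and 278 CPM at the lowest, median and highest young oocyte. Swap70 had 15.1 and 15.6 CPM in siCtrl and 11.9, 22.9 and 39.8 CPM over the young oocytes. For these 2 genes the siCtrl pools fell within the range of the oocytes. Both siPlat pools lay below every young oocyte, at 40.7 and 41.8 CPM for Nfya and 1.68 and 1.94 CPM for Swap70. Over the 7504 genes 27.8% had both siPlat pools below every young oocyte, wherever their siCtrl pools lay. The share with both features was not computed. Ergic3 had 16.1 and 40.0 CPM in siCtrl against 3.02, 7.25 and 23.0 CPM over the oocytes, so that 1 pool lay within their range and 1 above it.

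The other genes were far lower in untreated oocytes than in the control pools. Bcap29 had 52.3 and 51.6 CPM in siCtrl against 6.403, 12.6 and 24.5 CPM over the young oocytes. Its siPlat level of 7.49 and 9.10 CPM lay inside that range, near its lower end. Pigt had 15.3 and 12.0 CPM in siCtrl against a median of 2.65 and a highest value of 6.08 CPM in the oocytes, and 22 of the 35 oocytes were at or below its siPlat mean of 2.9996 CPM. Agbl2 had 44.9 and 37.1 CPM in siCtrl, 25.04-fold above the summed young level of 1.64 CPM. The young median was 1.35 CPM, and 3 of the 35 oocytes had 0 counts, as both siPlat pools did. Rassf4 had 13.5 and 13.6 CPM in siCtrl, 32.6-fold above the summed young level of 0.416 CPM. Btla, at 18.0 and 12.4 CPM in siCtrl, was 27.6-fold above the summed young level of 0.552 CPM, and its siPlat mean of 2.58 CPM was still higher than 34 of the 35 oocytes.

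Pak3 had the largest fold of the genes with a young count. It had 24.6 and 23.7 CPM in siCtrl, 531-fold above the 0.0454 CPM summed over young oocytes, and its siPlat pools, at 4.55 and 5.76 CPM, both lay above every young oocyte, as did 26.6% of the 7504 genes. Trim21 is listed at 0 in all 94 single oocytes, at both ages, while its pools had between 2.02 and 15.4 CPM. Of the 7504 genes compared, all with at least 5 CPM in siCtrl, 18 (0.24%) had no count in any oocyte. They include Tomm6, Mrpl53 and Pdcd2, genes that most cells use and that were named here after their values were seen, so a listing at 0 need not mean an absent message and no fold is given for Trim21. Of the 9 genes with a young count, 6 had a siCtrl mean more than 4-fold above the young level. Among the 7504 genes, 9.996% of those with a young count did so.

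**Figure D2:**
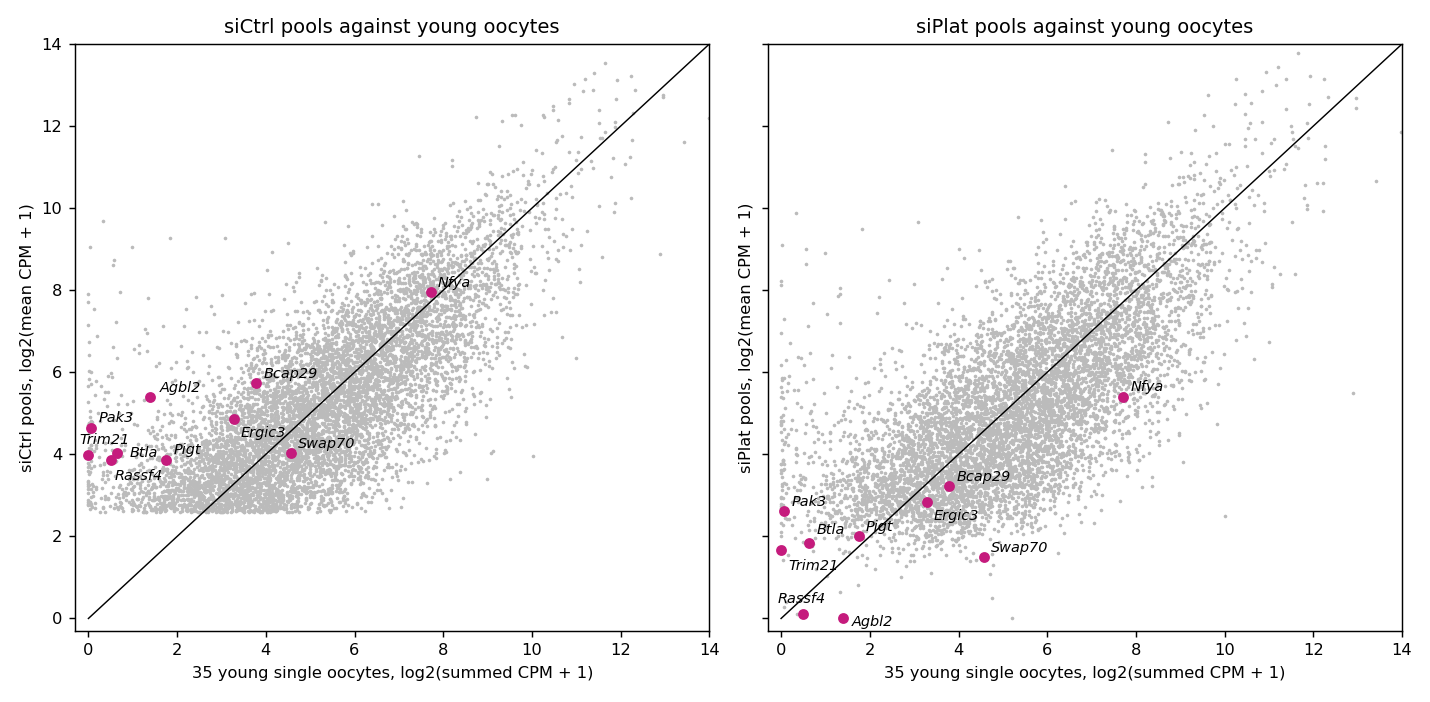
CPM in the siCtrl pools (left) and the siPlat pools (right), mean of 2, against CPM summed over 35 young single oocytes, both as log2(CPM + 1) over the genes both tables list; grey points are the 7504 tested genes with at least 5 CPM in siCtrl, coloured points the 10 genes, and the line marks equal values. In siCtrl, Nfya and Swap70 lie near the line and Trim21, Pak3, Btla, Rassf4, Agbl2, Pigt and Bcap29 above it; in siPlat, Nfya and Swap70 lie below it.

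In young oocytes, 4 of the 10 genes were counted in every oocyte: Nfya, Swap70, Bcap29 and Ergic3. These 4 also kept a count in all 35 oocytes when each was thinned to 2000000 counts. Values from here on are CPM over all genes of an oocyte, and summed CPM carries an exact Poisson interval at 95%. Such an interval covers counting error only and not the spread between oocytes, so it gives no measure of a difference between groups. Nfya summed to 197 CPM (196 to 199), with 108, 191 and 263 CPM in the lowest, median and highest oocyte. Its coefficient of variation (CV, SD over mean) was 0.175, equal to the median CV of 0.175 over 1856 genes with 100 to 1000 CPM. Swap70 summed to 21.5 CPM (20.96 to 22.0), with 11.2, 21.7 and 37.5 CPM and a CV of 0.272, again at the median of 0.272 over 4712 genes with 10 to 100 CPM. Both genes were therefore as even between young oocytes as the middle gene of their band. Bcap29 summed to 12.1 CPM (11.7 to 12.5), with 6.03, 11.9 and 23.2 CPM and a CV of 0.281.

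Ergic3 was more uneven, with 2.85, 6.83 and 21.7 CPM and a CV of 0.532, where counting error alone gives 0.122. The median CV of 5014 genes with 1 to 10 CPM was 0.525, although that band reaches far below Ergic3 in depth. Pigt was counted in 33 of 35 oocytes, with a median of 2.50 and a highest value of 5.76 CPM (CV 0.675), and Agbl2 in 32 of 35, with a median of 1.28 and a highest value of 5.71 CPM (CV 0.852). Agbl2 lay above the upper quartile of 0.671 for genes of 1 to 10 CPM, and Pigt just above it. Rassf4 was counted in 24 of 35 oocytes (18 after thinning), Btla in 19 (15 after thinning) and Pak3 in 4 (1 after thinning). The highest oocyte held 1.91 CPM of Rassf4, 2.96 CPM of Btla and 0.588 CPM of Pak3; for Pak3 the whole sample held 13 counts. The markers Ptprc, Cd3e, Cd79a and Cd79b of the lymphocytes on which Btla is best known reached at most 1.64 CPM in any of the 94 oocytes.

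**Figure D3:**
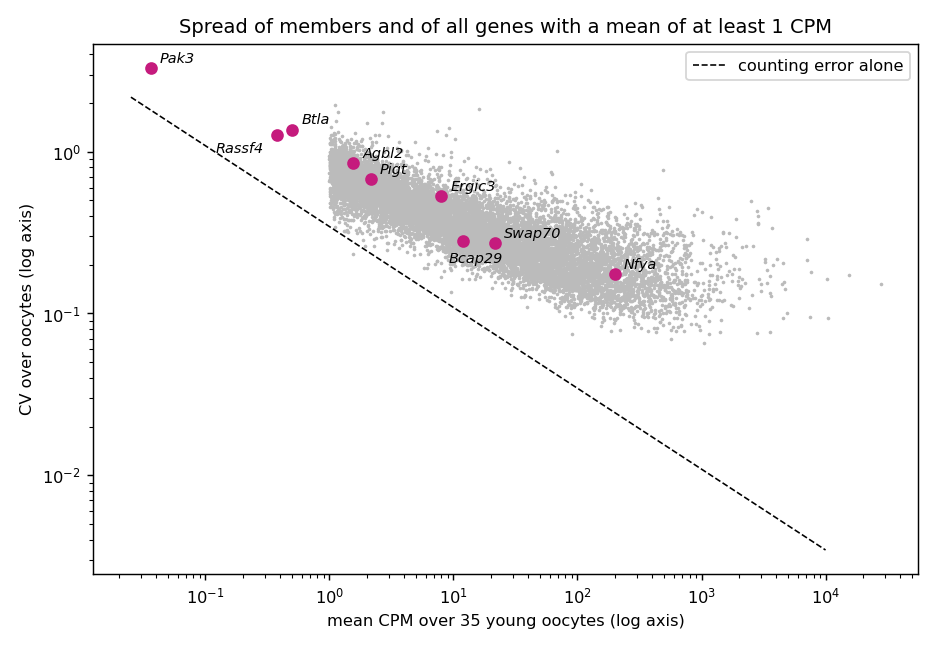
CV over 35 young oocytes against mean CPM, both axes log; grey points are all genes with a mean of at least 1 CPM, coloured points 9 of the 10 genes (Trim21 is at 0), and the dashed line is the CV that counting error alone would give. Nfya, Swap70 and Bcap29 lie in the middle of the cloud at their level, Ergic3, Pigt and Agbl2 in its upper part, and all 9 lie above the dashed line.

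Of the 59 aged oocytes, 38 had a mitochondrial share at or below 5%, from 0.947% to 2.97%, and 21 had a share above it, from 6.78% to 61.6%; the young oocytes ran from 0.688% to 1.92%. No oocyte lay between 2.97% and 6.78%. The split is defined from the data and not by a label. Over all 59 aged oocytes none of the 10 genes passed 2-fold against young in either direction, beside 0.783% of 8303 genes with at least 5 CPM lower and 2.47% higher. Trim21, Pak3, Rassf4, Btla, Agbl2 and Pigt lay below 5 CPM at both ages, so that share is of unlike genes. A pseudocount of 1 CPM pulls ratios of such low genes towards 0, and Trim21 had no count. For them, not passing 2-fold therefore says little. The log2 ratios of aged over young, with a pseudocount of 1 CPM, ran from -0.22 for Swap70 to 0.50 for Bcap29, around a median of -0.07 over all genes. With medians over oocytes in place of sums, Pigt moved from 0.05 to -0.81 (medians of 0.999 CPM in aged and 2.50 CPM in young), Btla from 0.38 to -0.24, Rassf4 from 0.12 to -0.29 and Agbl2 from 0.00412 to -0.35, so the direction of these 4 rests on the summary. Scaled to the ERCC spike-ins, synthetic RNAs added to each lysate, the median over all genes moved to -1.47, and every gene with a count was then below 0, with Nfya at -1.43, Swap70 at -1.64 and Bcap29 at -0.89. The directions by age below are therefore shares of an oocyte's gene counts and not amounts. Each age is 1 sample, so none of these differences has a test.

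Among aged oocytes at or below 5%, Nfya, Bcap29 and Ergic3 had the largest log2 ratios to young of the 10 genes. Nfya summed to 258 CPM (256 to 260), with 189, 249 and 381 CPM in the lowest, median and highest oocyte; 37 of the 38 lay above the young median and 14 above every young oocyte. Bcap29 summed to 18.4 CPM (17.9 to 18.9), with 6.11, 17.5 and 39.2 CPM; 37 of 38 lay above the young median and 2 above every young oocyte. Ergic3 summed to 14.05 CPM (13.6 to 14.5), with 4.85, 10.5 and 57.9 CPM; 34 of 38 lay above the young median and 4 above every young oocyte. The log2 ratios to young were 0.38 for Nfya, 0.57 for Bcap29 and 0.71 for Ergic3, around a median of 0.08 over 8413 genes with at least 5 CPM. Of these, 1.63% passed 2-fold higher and 0.214% passed 2-fold lower. None of the 10 genes did either, with the same limit for those below 5 CPM. The 2 ages overlapped for all 3 genes, most for Bcap29 and Ergic3. The shares of all genes with ratios this high, or with as many oocytes above the young ones, were not computed. The 2 oocyte groups also differed in depth, with a median total of 7075730 counts in these aged oocytes and 8564640 in young.

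The other genes moved less. Swap70 summed to 24.2 CPM with 13.7, 23.5 and 37.0 CPM over the oocytes, and 26 of 38 lay above the young median. Pigt summed to 1.73 CPM, and only 8 of 38 oocytes lay above the young median; its CV was 0.969, against 0.675 in young. Agbl2 (1.57 CPM), Btla (0.491 CPM), Rassf4 (0.445 CPM) and Pak3 (0.0576 CPM) stood within 0.06 log2 units of young, at levels where the pseudocount dominates. The spread of Nfya (CV 0.193), Swap70 (0.247) and Bcap29 (0.292) lay within the quartiles for genes of their depth in this group, whose medians were 0.197 and 0.289, while that of Ergic3 (0.722) lay above the upper quartile of 0.358 for genes of 10 to 100 CPM, a band of which it sits at the lower end. Leaving out the highest oocyte lowered Ergic3 from 14.05 to 12.8 CPM.

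The 21 aged oocytes above 5% stood apart. Their summed oocyte markers ran from 887 to 5343 CPM, against 18110 to 28540 CPM in aged oocytes at or below 5%, and Plat had 1.07 to 76.1 CPM there, against 2318 to 8384 CPM. The 11 cumulus and granulosa markers summed to between 0 and 30.9 CPM, against 26.3 to 89.9 CPM, and the 8 markers of stroma, theca and endothelium to between 0 and 45.5 CPM, against 75.9 to 178 CPM. At or below 5% each of these sums was mostly 1 gene, Cyp19a1 at 65.1 CPM and Pecam1 at 103.5 CPM over the group. The next highest marker of the 2 lists was Kdr, at 5.43 CPM. The sums therefore say little about the other markers. The 13 blood and immune markers summed to between 0 and 130 CPM, against 4.22 to 19.0 CPM, with Ptprc, Cd79a and Cd79b at 0 in all 21 oocytes and the haemoglobin genes Hba-a1 and Hbb-bs at 7.95 and 3.45 CPM over the group. Most genes had a smaller share there: of 8087 genes with at least 5 CPM, 48.6% were at least 2-fold lower than in the aged oocytes at or below 5% and 8.06% at least 2-fold higher, with a median log2 ratio of -0.94. Part of any such ratio is the space mitochondrial reads take in the total, and with totals of nuclear genes the median was -0.46. The part of these marker and depth differences in the values below was not tested.

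Nfya, Swap70 and Ergic3 were lower in the oocytes above 5% than most genes were. Nfya summed to 55.5 CPM (54.0 to 57.0), with 0.358, 46.3 and 171 CPM over the 21 oocytes, and all 21 lay below every aged oocyte at or below 5%. Swap70 summed to 2.29 CPM (1.99 to 2.61), with a median of 0.392 and a highest value of 11.4 CPM; 15 of 21 had a count, and all 21 again lay below every oocyte of the other group. The 2 sets of oocytes thus did not overlap for Nfya and Swap70. The share of all genes that separate in this way was not computed. The lack of overlap is therefore not shown to be particular to these 2 genes. Ergic3 summed to 2.80 CPM, with a median of 0.932 CPM, and 20 of 21 lay below every oocyte at or below 5%. The exception, aged oocyte 13, held 37.8 CPM and 57.0% of the group's Ergic3 counts, and the sum without it was 1.26 CPM. The log2 ratios above 5% over at or below 5% were -2.20 for Nfya, -2.94 for Swap70 and -1.98 for Ergic3, and with nuclear totals they were -1.71, -2.59 and -1.61.

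Bcap29, by contrast, spread in both directions within the same oocytes. It summed to 15.1 CPM, with 0, 10.3 and 53.1 CPM in the lowest, median and highest of the 21; 9 lay below every aged oocyte at or below 5% and 2 above every one of them. Its log2 ratio was -0.27, and 0.19 with nuclear totals, so its direction depends on the scaling. Its CV of 1.07 lay just under the upper quartile of 1.096 for genes of 10 to 100 CPM in this group.

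For the remaining genes a few oocytes held most of the counts. Btla was counted in 5 of 21 oocytes; its sum of 2.28 CPM came mainly from aged oocytes 6 and 5, at 18.8 and 18.2 CPM, and was 0.405 CPM without both. The lymphocyte markers Ptprc, Cd3e, Cd79a and Cd79b were all at 0 in both oocytes. The log2 ratio of Btla was 1.13 by sums and -0.40 by medians over oocytes, so its direction rests on how the oocytes are summarised. Rassf4 was counted in 3 of 21 oocytes, and aged oocyte 40, with a mitochondrial share of 61.6%, held 75% of its counts at 13.9 CPM; the sum fell from 0.706 to 0.184 CPM without it. The same oocyte held the highest Agbl2, at 15.01 CPM, where 4 of 21 oocytes had a count and the sum was 1.52 CPM, or 0.983 CPM without it. Pigt was counted in 8 of 21 oocytes, with 24.96 CPM in aged oocyte 8 and 4 oocytes above every aged oocyte at or below 5%, against a median of 0; its log2 ratio was 0.89 by sums and -1.34 by medians. Oocyte 8 was also the highest for Bcap29. Pak3 had 3 counts in the 21 oocytes, and Trim21 none.

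**Figure D4:**
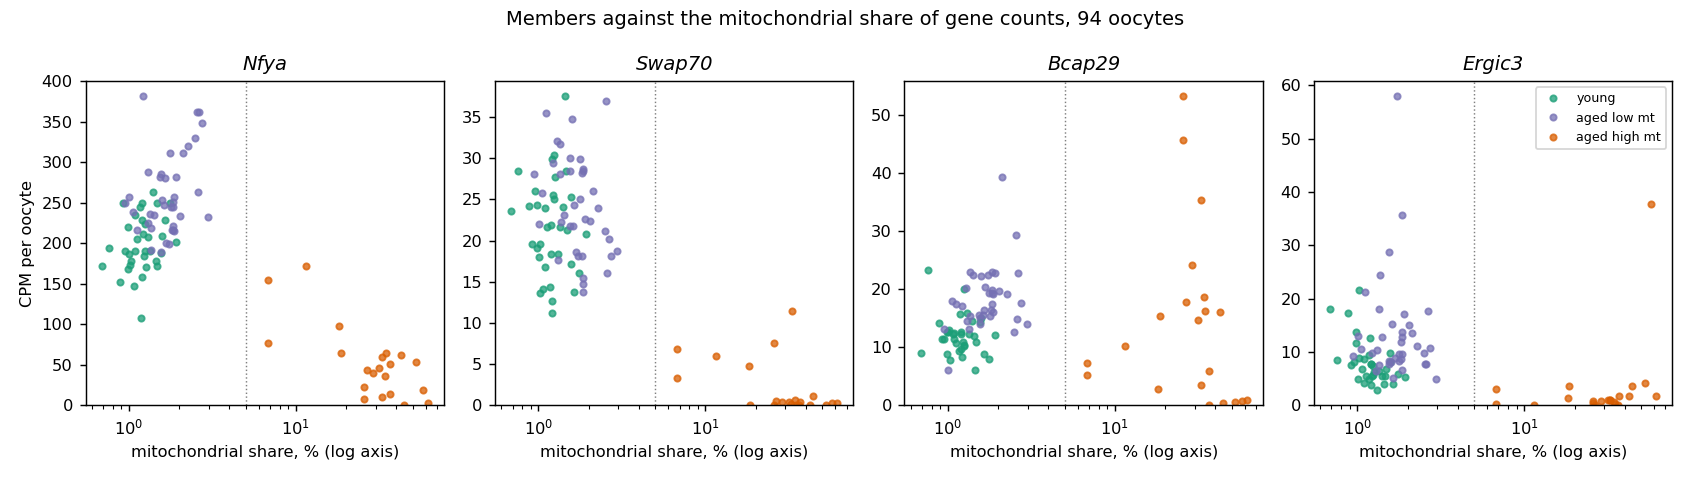
CPM of Nfya, Swap70, Bcap29 and Ergic3 in each of 94 oocytes against the percent of gene counts from mitochondrially encoded genes (log axis), with the 5% split as a dotted line and colours for young, aged at or below 5% (low mt) and aged above 5% (high mt). Above the line all 21 values of Nfya and Swap70 lie below every low mt oocyte, 1 value of Ergic3 reaches 37.8 CPM, and Bcap29 runs from 0 to 53.1 CPM. How many of all genes separate in this way was not computed.

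**Figure D5:**
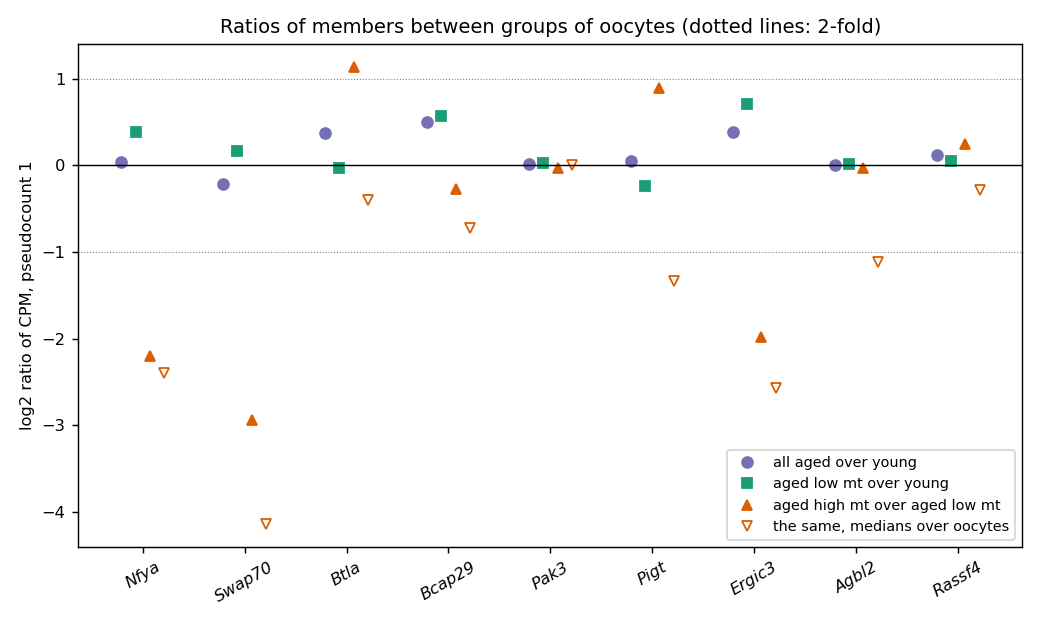
Log2 ratio of CPM with a pseudocount of 1 for 9 of the 10 genes (Trim21 is at 0 throughout): all aged over young, aged at or below 5% (low mt) over young, and aged above 5% (high mt) over aged low mt, the last from summed counts (filled) and from medians over oocytes (open); dotted lines mark 2-fold. Nfya, Swap70 and Ergic3 lie below -1 for high mt over low mt by either summary, and Pigt and Agbl2 do so by medians only. By sums 48.6% of 8087 genes were at least 2-fold lower, and the median over all genes was -0.94. By medians over oocytes the median over 7433 genes was -1.63. Btla, Pigt and Rassf4 lie above 0 by sums and below 0 by medians.

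Within the 73 oocytes at or below 5%, the genes whose levels ran most alike were taken for each of the 10 among 6859 genes with a mean of at least 10 CPM, by Spearman rho of log2(CPM + 1), and given where rho reached 0.5. These values describe oocytes of 2 samples that differ in depth and age label, and carry no p. Ergic3 ran most like Zp2, a zona pellucida glycoprotein (rho 0.72 over both ages, 0.63 in young and 0.59 in aged), and Dmap1 (0.69). Zp2 showed the same split between control pools, with 227 and 493 CPM in siCtrl and 148 and 117 CPM in siPlat (log2 change -1.45, SE 0.37, adjusted p = 0.105 by edgeR). Swap70 ran most like Ewsr1 (0.62; 0.71 in young and 0.54 in aged) and Mum1 (0.61). Nfya ran most like Lmo7 (0.71) and Daam1 (0.70), but within young oocytes these fell to 0.19 and 0.23, against 0.75 and 0.76 in aged. Bcap29 ran most like Dnajc7 (0.76; 0.42 in young and 0.44 in aged) and Zfp791 (0.75), and Pigt like Ptger4 (0.56) and Elavl1 (0.52). For the pairs of Nfya, Bcap29, Ergic3 and Pigt the value over both ages was higher than within young oocytes. For Swap70 with Ewsr1 it was lower. Btla, Pak3, Agbl2 and Rassf4 had no gene at 0.5 or above.

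The 4 genes counted in every young oocyte did not run together. In young oocytes the rho between them lay between -0.26 and 0.12, apart from -0.49 for Nfya with Ergic3, which was -0.25 in aged oocytes at or below 5%. Against the mitochondrial share, rho within the 21 oocytes above 5% was -0.56 for Nfya, -0.46 for Swap70, -0.41 for Bcap29 and 0.40 for Ergic3. Share and level have the same total in their denominator there.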

How the data were processed

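Polyadenylated RNA was measured in 4 pools of 10 oocytes and in 94 single oocytes, which the labels place in 4 groups. The authors deposited whole-number counts per gene in 2 tables, not normalised; STAR 2.7.10b, HTSeq 0.13.5 and the build mm10 are named per the submitters' processing notes, without their roles, and the annotation and strand setting are not given in the sources used here. The table of pools holds no mitochondrially encoded genes. The header of the single-oocyte table has 1 further column without a name or values. Entries that name no gene numbered 0.

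For the pools, counts were tested with edgeR 4.0.16 (robust quasi-likelihood fit, TMM, default filter with a minimum count of 10 and total of 15, no covariate) in R 4.3.3, with a call at a Benjamini-Hochberg adjusted p under 0.05. CPM of pools is TMM-scaled unless both tables are compared. DESeq2 1.42.0, limma 3.58.1 (voom), no filter, the replicate block and leaving out each pool were alternatives. For single oocytes, counts were summed per group and divided by gene totals without the 92 ERCC entries. The 10 genes, the gene lists and the comparisons were chosen with earlier results of these data known. Named beside the 10 genes are Plat, list genes that were called, the partners used as examples of a list, the called genes next to Ergic3 in fold, and the 2 genes most alike per gene. The partners given as examples were picked as the nearest relatives or complex members, also with results known. Sequences are RefSeq's, positions GENCODE's, both on GRCm38, the assembly that mm10 names.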

Additional observations from a re-analysis of the deposited data

How the results depend on the processing

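The call count in the pools was 394 with edgeR, 683 with DESeq2 (242 lower, 441 higher), 414 with limma-voom, 581 without the filter, and from 157 to 1145 when 1 pool was left out: 157 without siCtrl pool 1, 160 without siCtrl pool 2, 713 without siPlat pool 1 and 1145 without siPlat pool 2. Among the 110 tested partners it was 3 with edgeR, 8 with DESeq2, 5 with limma-voom, 7 without the filter and 0 to 15 with 1 pool left out. With the replicate block the counts were 273 and 1. The labels share only a number between pools, and deviations of same-numbered pools correlated at -0.06 over 11136 genes, so the pools were not treated as paired. At least 8 of the 10 genes were 4-fold lower in each of these fits. They were chosen for large falls in these same pools, so this count only describes the choice. By age, 0 of the 10 genes passed 2-fold, beside 0.783% of 8303 genes lower and 2.47% higher. The pseudocount holds back those of the 10 that lie below 5 CPM. With ERCC spike-in counts 3 of them were at least 2-fold lower. The median log2 ratio over 8905 genes was then -1.47, itself past 2-fold lower. The log2 ratio of Btla above 5% over at or below 5% reversed to -0.40 with medians over oocytes. The number of the 10 genes past 2-fold by mitochondrial share was 4 (3 lower, 1 higher), beside 48.6% of 8087 genes lower and 8.06% higher. It was 5 with nuclear totals or a split at 10% (3 lower, 2 higher) and 5 with medians over oocytes (5 lower, 0 higher). With medians over oocytes the median log2 ratio over 7433 genes was itself -1.63. The shares of all genes past 2-fold in these other settings were not computed. The siCtrl pools lay above every young oocyte for 7 genes, and for 7 or 8 under the scalings and left-out pools added after seeing the data. Depth limits Pak3, Rassf4 and Btla, whose counting error in young oocytes was 1.81, 0.561 and 0.487 of the mean. The causes of these shifts were not tested.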
